A study of Mus musculus with 18 samples.

Results

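The genes described here are 9 early-response genes of growth factor and Toll-like receptor signalling: the EGR zinc finger factors Egr1, Egr2 and Egr3, the immediate early response genes Ier2, Ier3 and Ier5, Phlda1, and the transcription factor genes Srf and Myc. They were taken by gene symbol from a count table of 56953 gene IDs, of which 25781 had any count. All 9 passed the filter on low counts, which left 13068 genes for testing, and each had between 21 and 4597 counts in every library. The RNA came from macrophages that were grown out of bone marrow for 7 days, with 20% FBS and, as the source of the growth factor M-CSF, 30% L929 supernatant. The marrow was from C57BL/6J mice (B6) or from mice with the threonine-to-alanine change T169A in RIPK1, a kinase that decides between survival and death downstream of TNF and Toll-like receptors. Both genotypes were sampled without stimulation, after 2 hours of lipopolysaccharide (LPS, the ligand of TLR4), and after 2 hours of LPS with 5z7 (LPS/5z7). The labels name 5z7 without spelling it out or giving doses. The abbreviation is in common use for 5Z-7-oxozeaenol, an inhibitor of the MAP3 kinase TAK1. No group with 5z7 alone was analysed here, so every value for 5z7 is on top of LPS.

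The 6 groups held 3 libraries each, named below by the running numbers in the table's columns, and totals ran from 14.6 to 30.4 M counts. Whether they represent different mice or cultures is not stated, so the p-values measure only the spread between these samples. All 8 macrophage markers checked were well expressed in every library, with Lyz2 at no less than 416723 counts. The defining markers Cd3e (T cells), Ncr1 (NK cells) and Cpa3 (mast cells) were at 0 counts throughout, and the summed neutrophil, fibroblast and T cell lists reached at most 39.3, 12.2 and 6.49 CPM (counts scaled by the library total). The summed dendritic cell list stood at 0.463 to 0.585 CPM in unstimulated and 1.68 to 1.965 CPM in LPS libraries of B6, and at 0.206 to 0.302 and 1.11 to 1.7 CPM in T169A. The T cell list stood at 5.19 to 6.49 CPM in unstimulated and 3.66 to 4.72 CPM in LPS libraries of B6. In T169A it stood at 3.52 to 4.997 and 2.19 to 2.85 CPM. On this scale by library total the summed macrophage list was also lower with LPS in B6, at 30510 to 36440 CPM against 39260 to 53310 CPM unstimulated. A lower CPM with LPS was thus not particular to the T cell list. The part of these lists in the results was not tested. The cells are a bulk preparation, in which a change in the number of expressing cells and a change in RNA per cell cannot be told apart.

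Immediate early genes are transcribed within minutes of a signal without new protein synthesis. Many carry serum response elements, where SRF binds with ternary complex factors that are phosphorylated by ERK, and several also carry sites for NF-kB. TLR4 signals through TAK1, which activates both the IKK kinases upstream of NF-kB and the MAP kinase cascades. Their transcripts are short-lived, so a single time point shows the level at that time and not the earlier peak.

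Promoter stretches are shown because these sites are the known entry points of the 2 pathways. RefSeq promoter windows on GRCm38.p6 (250 bases before to 50 after an annotated start), matched by symbol, were used for 4 of the 9 genes, Egr2, Ier3, Ier5 and Srf. That the other genes are not shown does not mean that they have no such window. The stretch from 200 to 31 bases before 1 annotated start holds no annotated exon and is printed 5′ to 3′ on the gene's strand, with capitals for a match to the CArG box (the core of the serum response element) in Egr2 and Srf and to the NF-kB site in Ier3.
Egr2, chr10:67537669-67537838, plus strand: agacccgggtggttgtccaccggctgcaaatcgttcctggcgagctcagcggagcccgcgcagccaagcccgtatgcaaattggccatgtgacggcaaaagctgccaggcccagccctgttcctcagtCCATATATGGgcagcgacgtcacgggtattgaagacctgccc
Srf, chr17:46556193-46556362, minus strand: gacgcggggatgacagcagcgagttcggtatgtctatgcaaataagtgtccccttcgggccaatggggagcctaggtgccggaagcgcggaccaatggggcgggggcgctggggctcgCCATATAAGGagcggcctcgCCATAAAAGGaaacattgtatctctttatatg
Ier3, chr17:35821513-35821682, plus strand: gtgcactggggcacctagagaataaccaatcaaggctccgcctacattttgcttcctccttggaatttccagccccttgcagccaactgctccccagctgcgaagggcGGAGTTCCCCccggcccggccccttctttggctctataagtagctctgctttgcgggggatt
The first base of the match lies at position -72 from the start in Egr2, at -82 and -62 in Srf, and at -92 in Ier3, where the match is on the minus strand. Both motifs were searched on both strands, and the matches shown do not overlap each other. A CArG box was found in 1.63% and an NF-kB site in 4.51% of 32851 promoter windows of the same length. The stretch of Ier5 (chr1:155099667-155099836, minus strand) held neither of these letter patterns. A match describes the sequence and does not show that a factor binds there.

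After 2 hours of LPS, 7 of the 9 genes were higher in B6 cells and the same 7 in T169A cells: Egr2, Egr3, Ier2, Ier3, Ier5, Phlda1 and Srf. Phlda1, which encodes a pleckstrin homology-like protein, changed most, by 11.98-fold in B6 and 12.9-fold in T169A, and Srf changed least. Egr1 and Myc did not take part in the rise. The background was large: of all tested genes, 63.1% were called with LPS in B6 (29.6% up and 33.5% down) and 61.9% in T169A (30.3% up and 31.5% down) (edgeR quasi-likelihood test, Benjamini-Hochberg adjusted p under 0.05). With LPS/5z7 against LPS alone, 8 of the 9 genes were called lower in each genotype, all but Srf, whose values also pointed down without passing. Of all tested genes, 13.8% were called in B6 (6.79% down and 7.03% up) and 13% in T169A (6.53% down and 6.5% up). The count for 5z7 in B6 dropped to 5 without library 6, and in T169A it lay between 6 and 9 with 1 library left out. The median change of the 9 genes was 1.14 (B6) and 1.09 (T169A) on the log2 scale with LPS, against -0.07 and -0.03 for all tested genes, and -1.10 and -1.15 with 5z7, against 0.02 and 0.02. The 9 genes were chosen with earlier results of these data known, so these counts and medians are a description.

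**Figure D1:**
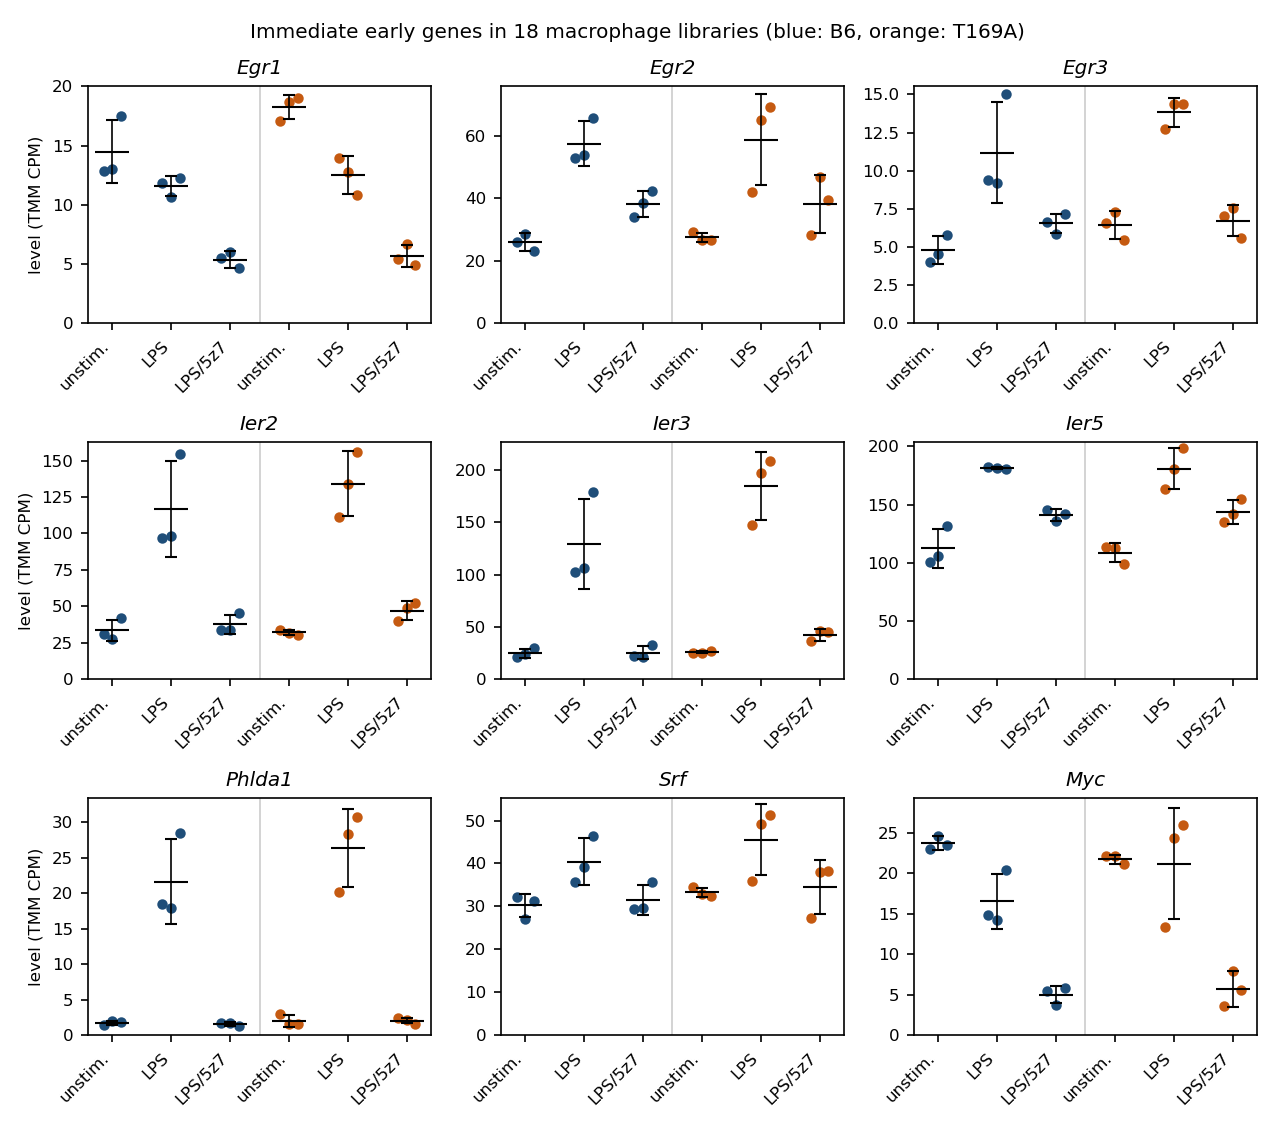
Level of each gene in every library, in CPM after TMM scaling (TMM CPM, linear axis from 0), by treatment, with B6 in blue and T169A in orange; the long bar is the group mean and the whiskers are 1 SD (n = 3). Phlda1, Ier2 and Ier3 stand high in the LPS libraries alone, whereas Egr1 and Myc are lowest in the LPS/5z7 libraries.

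These changes are relative to the bulk of genes, because TMM scaling centres most genes near no change. In place of TMM, library size alone moved the median of all tested genes with LPS from -0.07 to -0.66 in B6 and from -0.03 to -0.61 in T169A. Under that scaling 5 of the 9 genes were higher and 2 lower with LPS in both genotypes, Srf turned to -0.18 in B6 and -0.13 in T169A without passing the test, and Ier5 was no longer called (0.10 and 0.16). The 2 called lower were Egr1 (-0.91 in B6, edgeR adjusted p = 1.77e-05) and Myc (-1.12 in B6, adjusted p = 0.000502, and -0.63 in T169A, adjusted p = 0.0274). With 5z7 the members called lower went from 8 to 6 in each genotype under that scaling. Egr2 was lost at -0.42 (adjusted p = 0.125) in B6 and -0.46 (0.0906) in T169A, and Ier5 at -0.20 (0.205) and -0.17 (0.291).

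**Figure D2:**
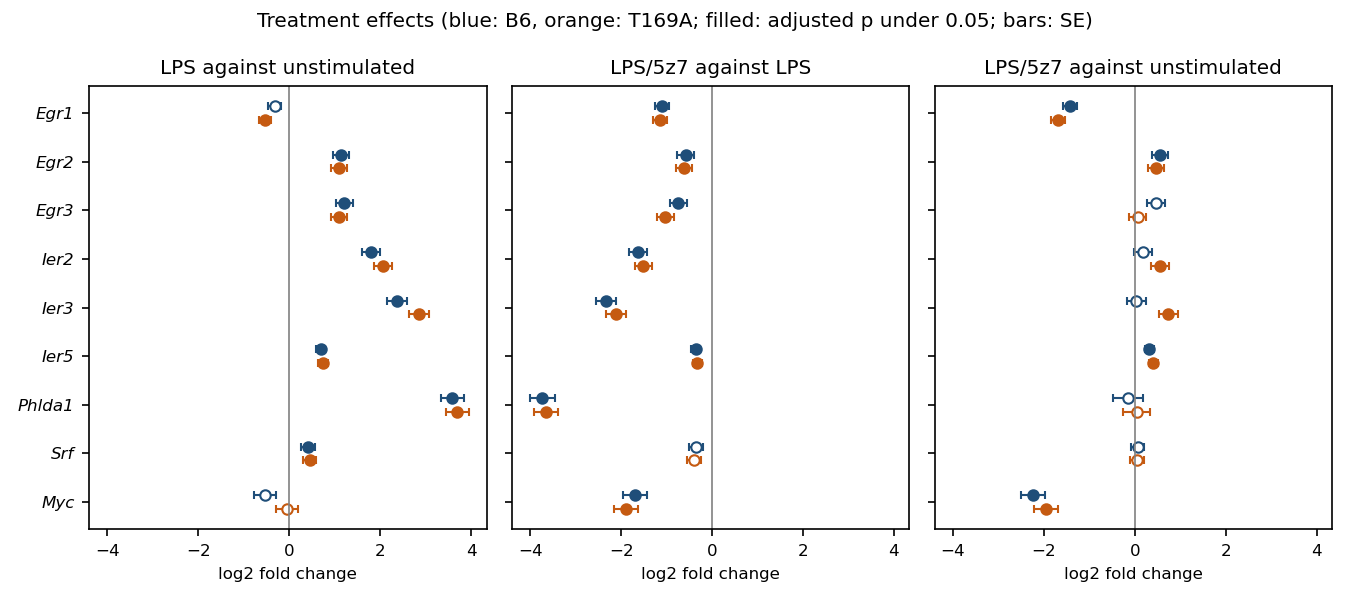
Log2 fold change of each gene with its SE (bars) in 3 treatment comparisons, B6 in blue and T169A in orange, filled where the edgeR adjusted p is under 0.05. With 5z7 added to LPS all 18 points lie below 0, from -0.33 to -3.73, and only those of Srf are open.

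Egr1 encodes the zinc finger factor EGR1, the best known target of ERK and SRF. In B6 it stood at 12.8, 13.1 and 17.5 TMM CPM in the unstimulated libraries 1, 4 and 7, at 11.8, 10.6 and 12.3 CPM in the LPS libraries 2, 5 and 8, and at 5.47, 6.04 and 4.64 CPM in the LPS/5z7 libraries 3, 6 and 9. Its T169A levels were 17.1, 18.7 and 19.1 CPM unstimulated (10, 13 and 16), 13.97, 12.8 and 10.8 CPM with LPS (11, 14 and 17), and 5.45, 6.66 and 4.90 CPM with LPS/5z7 (12, 15 and 18). The 3 conditions did not overlap within either genotype, and the order was the same, with unstimulated cells highest. With LPS it fell by 0.54 ± 0.14 (SE) on the log2 scale in T169A (edgeR adjusted p = 0.00258), while the B6 value of -0.32 ± 0.14 missed the threshold (adjusted p = 0.0546). The B6 value passed without library 1 (adjusted p = 0.0339) or library 4 (adjusted p = 0.0375). Adding 5z7 lowered Egr1 further, by -1.10 ± 0.15 in B6 (edgeR adjusted p = 0.000100) and -1.15 ± 0.15 in T169A (adjusted p = 5.41e-05), to 37.2% and 31.0% of the unstimulated mean.

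Egr2 and Egr3, which encode related factors that bind the same GC-rich element, went the other way with LPS. Egr2 in B6 stood at 26.1, 28.7 and 23.1 CPM unstimulated, 52.7, 53.7 and 65.6 CPM with LPS, and 33.9, 38.5 and 42.3 CPM with LPS/5z7. In T169A the values were 29.2, 26.5 and 26.7 CPM, then 42.1, 64.9 and 69.2 CPM, then 28.3, 46.8 and 39.4 CPM, and the last 2 conditions overlapped. The rise with LPS was 1.14 ± 0.18 in B6 (edgeR adjusted p = 3.45e-05) and 1.09 ± 0.18 in T169A (adjusted p = 5.44e-05). The fall with 5z7 was smaller, -0.58 ± 0.18 in B6 (edgeR adjusted p = 0.0401) and -0.62 ± 0.18 in T169A (adjusted p = 0.0301). That call was lost in B6 without library 3, 5, 6, 8 or 9 (adjusted p from 0.0506 to 0.153) and in T169A without library 12, 14, 17 or 18 (0.0723 to 0.120), with folds between -0.50 and -0.68 in B6 and between -0.45 and -0.82 in T169A over all removals. Egr2 stayed above the unstimulated level with LPS/5z7, at 0.55 ± 0.18 in B6 (adjusted p = 0.0158) and 0.47 ± 0.18 in T169A (adjusted p = 0.0364). This was lost without library 7 or 9 in B6 (0.0526 and 0.0711) and without library 10, 13, 15, 16 or 18 in T169A (0.0511 to 0.204).

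Egr3 had the lowest level per length of the 3 EGR genes in unstimulated cells. B6 libraries held 4.04, 4.55 and 5.81 CPM unstimulated, 9.40, 9.18 and 15 CPM with LPS, and 6.65, 5.86 and 7.13 CPM with LPS/5z7. T169A libraries held 6.55, 7.30 and 5.47 CPM, then 12.8, 14.4 and 14.4 CPM, then 7.04, 7.58 and 5.57 CPM. The LPS libraries were above all others in both genotypes. Egr3 rose with LPS by 1.21 ± 0.19 in B6 (edgeR adjusted p = 2.49e-05) and 1.10 ± 0.18 in T169A (adjusted p = 4.95e-05) and fell with 5z7 by 0.75 ± 0.19 (adjusted p = 0.0126) and 1.03 ± 0.18 (adjusted p = 0.00108). Without library 6 the fall in B6 just missed the threshold (adjusted p = 0.0504). Against unstimulated cells, the LPS/5z7 values were 0.46 ± 0.19 in B6 (adjusted p = 0.0532) and 0.07 ± 0.19 in T169A (adjusted p = 0.773), and the B6 value passed without library 7 (0.60, adjusted p = 0.0162) and with DESeq2 (adjusted p = 0.0410).

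Ier3 (IEX-1), a regulator of survival and ERK signalling that is a known NF-kB target, had the largest response of the IER genes. Levels in B6 were 21.2, 24.1 and 29.7 CPM unstimulated, 102.7, 106.0 and 178.6 CPM with LPS, and 22.7, 21.6 and 32.3 CPM with LPS/5z7. Levels in T169A were 25.4, 24.7 and 26.8 CPM, then 147.7, 197.0 and 208.4 CPM, then 36.1, 46.4 and 45.5 CPM. All 6 LPS libraries lay above the other 12. Ier3 rose with LPS by 2.37 ± 0.21 in B6 (5.17-fold, edgeR adjusted p = 3.75e-08) and 2.85 ± 0.22 in T169A (7.18-fold, adjusted p = 3.996e-09), and fell with 5z7 by 2.34 ± 0.22 (adjusted p = 1.19e-06) and 2.11 ± 0.21 (adjusted p = 2.81e-06). The LPS/5z7 mean was 102% of the unstimulated mean in B6, a difference of 0.03 ± 0.21 (adjusted p = 0.91), and 166% in T169A, a difference of 0.73 ± 0.21 (adjusted p = 0.00654). In T169A the LPS/5z7 libraries did not overlap the unstimulated ones, and the call held with any 1 library left out. It was lost under scaling by library size alone, at 0.31 (edgeR adjusted p = 0.204).

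Ier2, a nuclear protein gene with a serum response element, had the same order of conditions. The B6 libraries read 30.8, 27.9 and 42.0 CPM unstimulated, 97.0, 98.2 and 154.5 CPM with LPS, and 34.1, 34.1 and 45.2 CPM with LPS/5z7. The T169A libraries read 34.1, 31.6 and 30.6 CPM, then 111.6, 134.2 and 156.1 CPM, then 39.7, 49.0 and 52.5 CPM. The rise with LPS was 1.80 ± 0.20 in B6 (edgeR adjusted p = 3.74e-07) and 2.06 ± 0.20 in T169A (adjusted p = 7.29e-08), and 5z7 changed it by -1.62 ± 0.20 (adjusted p = 2.10e-05) and -1.51 ± 0.19 (adjusted p = 4.33e-05). With LPS/5z7, Ier2 was called above unstimulated in T169A (0.55 ± 0.19, adjusted p = 0.0225) but not in B6 (0.18 ± 0.19, adjusted p = 0.466), and the T169A call was lost without library 13, 15, 16 or 18 (0.0582 to 0.0925).

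Ier5, a partner of the heat shock factor HSF1, had the highest level per length of the 9 in unstimulated cells. For B6 the values were 100.7, 105.5 and 131.7 CPM unstimulated, 182.6, 181.1 and 180.5 CPM with LPS, and 145.3, 135.6 and 141.8 CPM with LPS/5z7. For T169A the values were 113.9, 112.5 and 99.0 CPM, then 163.4, 180.3 and 198.6 CPM, then 134.9, 142.0 and 155.2 CPM. The 3 conditions were separate in both genotypes, with LPS/5z7 between the others. Ier5 rose with LPS by 0.69 ± 0.10 in B6 (edgeR adjusted p = 1.56e-05) and 0.74 ± 0.10 in T169A (adjusted p = 7.51e-06). With 5z7 it fell by 0.36 ± 0.10 (adjusted p = 0.0248) and 0.33 ± 0.10 (adjusted p = 0.0431), to 77.7% of the LPS mean in B6. The call was lost without library 3, 5 or 6 in B6 (0.0510 to 0.0693) and without library 12, 14, 15 or 17 in T169A (0.0906 to 0.148). Ier5 stayed above unstimulated with LPS/5z7, at 0.32 ± 0.10 in B6 (adjusted p = 0.0124, but 0.0641 without library 1) and 0.41 ± 0.10 in T169A (adjusted p = 0.00260).

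Phlda1 had the lowest level per length of the 9 in unstimulated cells. In B6 it stood at 1.47, 1.98 and 1.88 CPM unstimulated, 18.6, 17.9 and 28.5 CPM with LPS, and 1.76, 1.78 and 1.25 CPM with LPS/5z7. In T169A it stood at 3.01, 1.53 and 1.59 CPM, then 20.3, 28.4 and 30.7 CPM, then 2.42, 2.10 and 1.65 CPM. The LPS libraries were far above the rest, and the other conditions overlapped. The rise was 3.58 ± 0.26 in B6 (edgeR adjusted p = 1.82e-09) and 3.69 ± 0.25 in T169A (adjusted p = 1.01e-09), and the change with 5z7 was -3.73 ± 0.27 (adjusted p = 8.06e-08) and -3.65 ± 0.26 (adjusted p = 5.37e-08). Against unstimulated cells, LPS/5z7 gave -0.15 ± 0.32 in B6 (adjusted p = 0.721) and 0.04 ± 0.30 in T169A (adjusted p = 0.924), with approximate 95% intervals of -0.785 to 0.48 and -0.55 to 0.63.

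Srf, the gene of the serum response factor itself, moved little. In B6 it stood at 32.3, 27.2 and 31.4 CPM unstimulated, 35.8, 39.1 and 46.4 CPM with LPS, and 29.5, 29.7 and 35.6 CPM with LPS/5z7. In T169A it stood at 34.5, 32.98 and 32.4 CPM, then 36.0, 49.3 and 51.4 CPM, then 27.3, 38.1 and 38.3 CPM. Srf rose with LPS by 0.41 ± 0.15 in B6 (edgeR adjusted p = 0.0215) and 0.45 ± 0.15 in T169A (adjusted p = 0.0138). The call was lost without library 4 or 8 in B6 (0.0826 and 0.0920) and without library 14 or 17 in T169A (0.0609 and 0.0740), and the sign turned when libraries were scaled by size alone. The 5z7 values of -0.35 ± 0.15 in B6 (adjusted p = 0.136) and -0.40 ± 0.15 in T169A (adjusted p = 0.0905) did not pass, although DESeq2 called the latter (adjusted p = 0.0375), as did the fit without library 11 (adjusted p = 0.0211). A replicate block on consecutive column numbers called both (0.0466 and 0.0278). The fit on all genes unfiltered also called both (0.0409 and 0.0400). So did the fit with the log2 library total as a covariate (0.00153 and 0.00498), which was added after seeing the data.

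Myc, the growth regulator that pairs with MAX, was the member most reduced below the unstimulated level. In B6 it stood at 23.0, 24.7 and 23.5 CPM unstimulated, 14.9, 14.3 and 20.4 CPM with LPS, and 5.47, 3.79 and 5.83 CPM with LPS/5z7. In T169A it stood at 22.1, 22.1 and 21.1 CPM, then 13.3, 24.3 and 26.0 CPM, then 3.56, 7.94 and 5.64 CPM. The LPS libraries spread on either side of the unstimulated level in T169A, whereas all 6 LPS/5z7 libraries lay below all others. With LPS the values were -0.53 ± 0.24 in B6 (edgeR adjusted p = 0.0593) and -0.05 ± 0.24 in T169A (adjusted p = 0.865), and the B6 value passed without library 8 (-0.69, adjusted p = 0.0285). In T169A the value was 0.19 (adjusted p = 0.452) without library 11. With 5z7 Myc fell by 1.70 ± 0.27 in B6 (adjusted p = 0.000347) and 1.90 ± 0.26 in T169A (adjusted p = 9.17e-05). Against unstimulated cells LPS/5z7 gave -2.23 ± 0.26 (adjusted p = 1.39e-06) and -1.95 ± 0.26 (adjusted p = 5.46e-06), that is 4.70-fold and 3.86-fold lower.

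Compared with unstimulated cells, LPS/5z7 thus left Egr1 and Myc lower in both genotypes, Egr2 and Ier5 higher in both, and Ier2 and Ier3 higher in T169A. The background in that comparison was 55.5% of tested genes in B6 (27.6% up and 27.9% down) and 55.6% in T169A (28.1% up and 27.5% down), so the counts of 2 higher and 2 lower in B6 are near it. The count of higher members, 2 in B6, dropped to 1 without library 1 or 9. In T169A it was 4 and dropped to 2 without library 13, 15, 16 or 18. Egr1 and Myc stayed called lower in both genotypes with any 1 library left out. Under scaling by library size alone 0 were called higher in either genotype. The comparisons share libraries: LPS enters the first 2 and LPS/5z7 the last 2.

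Per length of transcript (TMM CPM per kilobase of the gene's exons, RPKM), the order in unstimulated B6 cells began with Ier5 at 34.4 RPKM, Ier3 at 22.1 and Ier2 at 22.0, followed by Srf at 10.5, Myc at 8.73, Egr2 at 7.64, Egr1 at 3.23, Egr3 at 1.09 and Phlda1 at 0.806. With LPS, Ier3 led at 114.2 RPKM and Ier2 followed at 76.6, both above Ier5 at 55.4, and Phlda1 at 9.83 stood above Myc at 6.09. With LPS/5z7 Ier5 led again at 43.0, followed by Ier2 at 24.8 and Ier3 at 22.6, while Myc at 1.85 stood below Egr2 at 11.25 and close to Egr3 at 1.49.

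Across the 18 libraries the genes fell into 2 patterns, given as a description since the points share treatments and libraries. Pairs among Egr2, Egr3, Ier2, Ier3, Ier5, Phlda1 and Srf had Pearson's r of log2 CPM between 0.71 (Ier5 and Srf) and 0.99 (Ier2 and Ier3). Egr1 and Myc correlated with each other (r = 0.90) and less with the rest, between -0.27 (Egr1 and Ier5) and 0.38 (Myc and Phlda1). Among 8416 genes reaching 10 CPM in any group, Zfp36, which encodes the mRNA decay factor tristetraprolin, was most like both Ier2 (r = 0.98) and Ier3 (r = 0.98), followed for both by Tnip2, a gene of an A20-binding protein. Tec, a gene of a TEC family kinase, was most like Phlda1 (r = 0.98), Dda1 most like Ier5 (0.98), Socs5 most like Egr2 (0.97), St6galnac4 most like Egr3 (0.94) and Pias4 most like Srf (0.91). Id2, which encodes an inhibitor of basic helix-loop-helix factors, was among the 3 genes most like Egr1 (r = 0.95) and most like Myc (0.96), whose closest were Evl (0.96) and Dclre1b (0.96).

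The LPS libraries differed in depth, and most of these genes moved with it. LPS libraries 2, 5 and 11 (deep) held 29.5 to 30.4 M counts, and 8, 14 and 17 (shallow) held 15.5 to 18.2 M. In 7 of the 9 genes, all but Egr1 and Ier5, every deep library lay below every shallow one, a pattern found in 20.9% of tested genes, with 22.5% the opposite way. Ier3, for example, stood at 102.7 to 147.7 CPM in the deep and 178.6 to 208.4 CPM in the shallow LPS libraries. B6 has 2 deep and 1 shallow LPS library and T169A 1 deep and 2 shallow, so depth and genotype are partly mixed here. Whether depth plays a part in these values was not tested. Between the 3 deepest and 3 shallowest LPS/5z7 libraries 0 of 9 genes were split, beside 311 genes below and 366 above of the 13068 tested. Among the unstimulated ones 1 of 9, Ier3, was split, beside 909 below and 1354 above, so both counts are near the background.

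**Figure D3:**
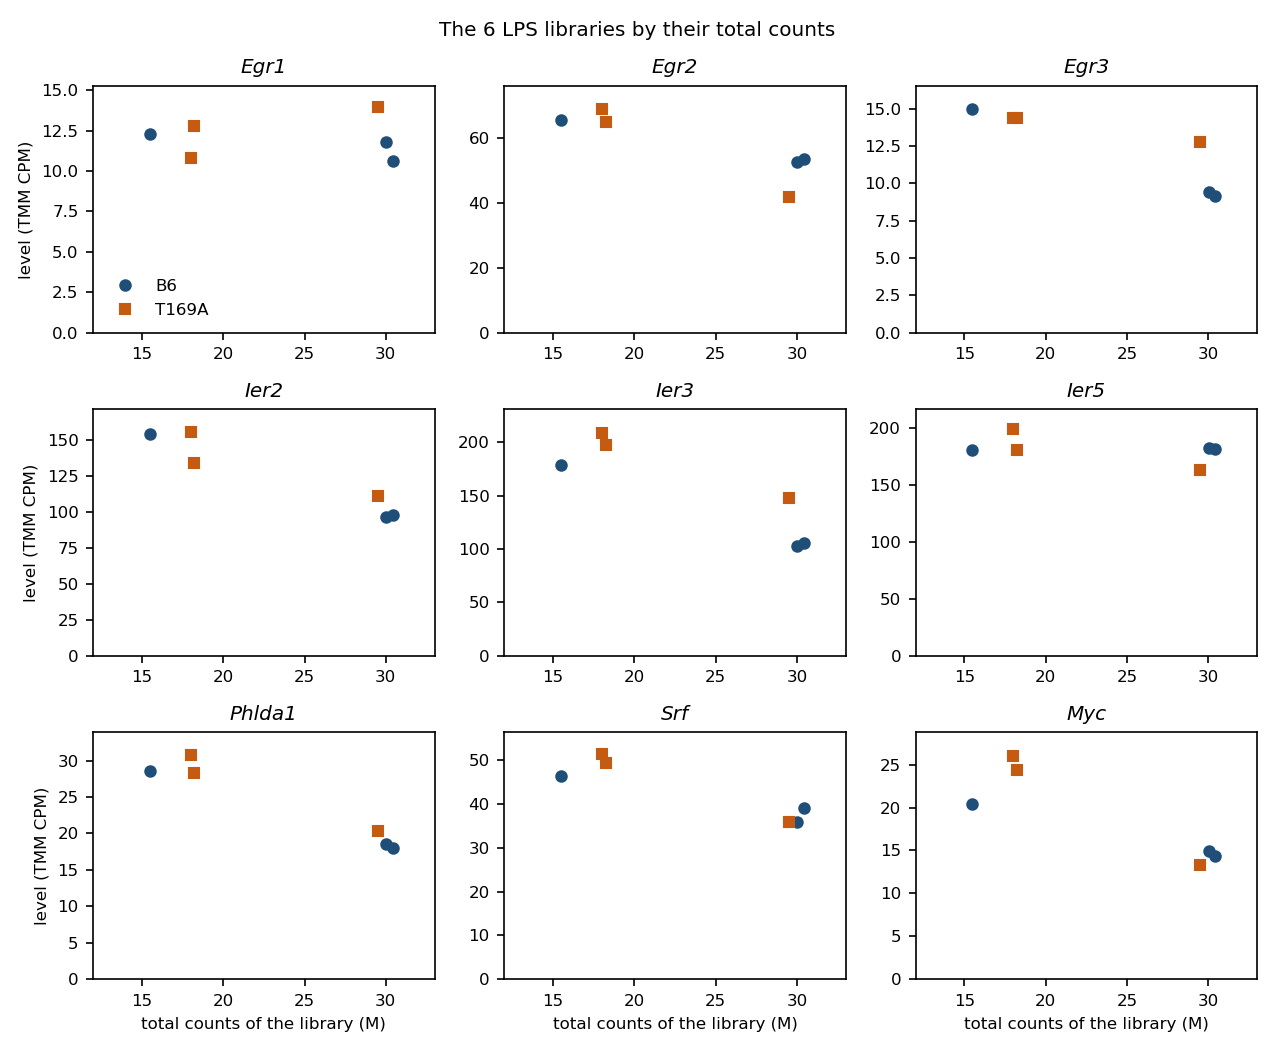
Level of each gene (TMM CPM, linear axis from 0) in the 6 LPS libraries against the library's total counts (M), with B6 as circles and T169A as squares. In all panels except Egr1 and Ier5, the 3 libraries near 30 M lie below the 3 libraries at 15.5 to 18.2 M.

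The treatment effects were refitted with only the shallow and with only the deep LPS libraries, a check added after seeing the data, in which a genotype with 1 LPS library is assumed to vary like the other groups. With the shallow ones 7 genes were higher with LPS in B6 and 7 in T169A, and 5z7 lowered 7 and 8. With the deep ones 6 and 6 were higher, and 5z7 lowered 5 and 6. The LPS rise of Ier3 in B6 was 2.84 with the shallow and 2.07 with the deep libraries, and that of Phlda1 was 3.996 and 3.36. Myc with LPS in T169A was 0.21 (edgeR adjusted p = 0.405) with the shallow and -0.70 (adjusted p = 0.0464) with the deep library, so its level after LPS is not settled by these data. Egr1 with LPS in T169A was -0.38 and not called with the deep library (adjusted p = 0.120). The 5z7 fall of Egr2 in T169A was -0.82 with the shallow and -0.14 (adjusted p = 0.723) with the deep library.

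Between genotypes, none of the 9 genes passed the test in unstimulated, LPS or LPS/5z7 cells, where 0.214%, 0.222% and 0.161% of all tested genes did (edgeR). Of all tested genes 0.0765%, 0.0842% and 0.0612% were higher in T169A, and 0.138%, 0.138% and 0.0995% lower. At an unadjusted p under 0.05 there were 2 of the 9 genes in unstimulated cells and 1 in each of the other conditions, beside 694, 729 and 766 of the 13068 tested genes. DESeq2 called 0 of the 9 genes in each. Over all tested genes it called 20 higher and 49 lower in unstimulated cells, 18 and 38 with LPS, and 17 and 30 with LPS/5z7. Ier3 had the largest difference of the 9: under LPS/5z7 its T169A libraries (36.1 to 46.4 CPM) lay above all B6 libraries (21.6 to 32.3 CPM), a difference of 0.74 ± 0.21 with an approximate 95% interval of 0.33 to 1.15 (unadjusted p = 0.00267, edgeR adjusted p = 0.401). With the log2 library total as a covariate, also added after seeing the data, the difference was 0.81 and passed (adjusted p = 0.00181). That fit called more genes in all, 59 higher and 71 lower against 8 and 13, and put 2799 against 766 at an unadjusted p under 0.05. With LPS alone Ier3 differed by 0.52 ± 0.20 (unadjusted p = 0.0201, edgeR adjusted p = 0.758). In the deep LPS libraries Ier3 averaged 104.4 CPM for B6 and 147.7 CPM for T169A, and in the shallow ones 178.6 and 202.7 CPM. In unstimulated cells Egr1 differed by 0.34 ± 0.14 (unadjusted p = 0.0213, edgeR adjusted p = 0.751) and Egr3 by 0.44 ± 0.19 (0.0344 and 0.879), both towards T169A. The remaining differences ran from -0.12 (Myc, unstimulated) to 0.38 (Phlda1, LPS/5z7). In unstimulated cells the libraries of the genotypes also did not overlap for Srf (0.14 ± 0.15) and Myc (-0.12 ± 0.23). Separation of the libraries was thus not particular to Ier3, and its share among all tested genes is not given here. For Egr2 the intervals reached -0.28 to 0.44 in unstimulated cells and -0.32 to 0.38 with LPS, so differences of up to about that size are not excluded.

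**Figure D4:**
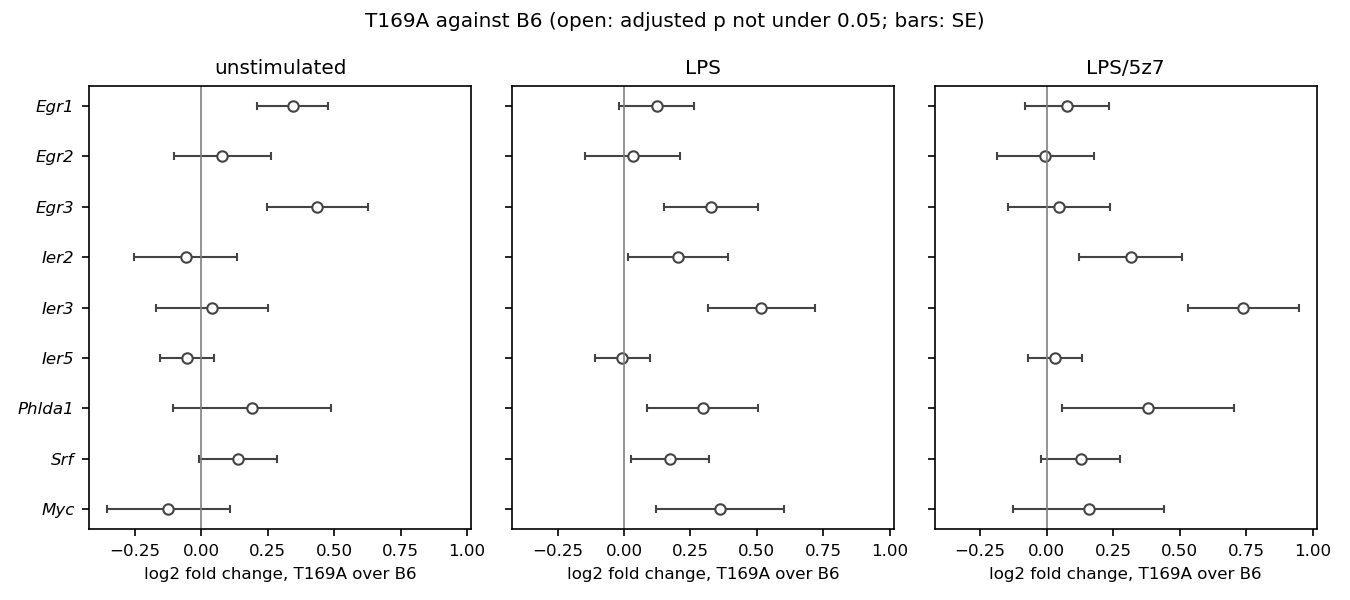
Log2 fold change of T169A over B6 for each gene, with its SE (bars), in unstimulated, LPS and LPS/5z7 cells. All 27 points are open (edgeR adjusted p not under 0.05), and the point farthest from 0 is Ier3 with LPS/5z7 at 0.74.

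The treatment effects themselves were also compared between genotypes by a test of the difference. None of the 9 genes, and 0% of all tested genes, passed for the effect of LPS, of 5z7 or of LPS/5z7 (edgeR). Over all tested genes 421, 151 and 461 had an unadjusted p under 0.05, and DESeq2 called 0, 0 and 2. Ier3 in the effect of LPS/5z7 had 0.70 ± 0.30 (unadjusted p = 0.0306, edgeR adjusted p = 0.83), and the differences of the other genes in the 3 effects lay between -0.39 and 0.48. The approximate 95% intervals ran from 0.12 to 1.28 for Ier3 in the effect of LPS/5z7 and from -0.17 to 1.14 for Myc in the effect of LPS. Differences within these intervals are not excluded. The T169A calls for Ier2 and Ier3 above unstimulated with LPS/5z7 are therefore not shown to be particular to T169A.

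Other genes of the same pathways were read from lists grouped by function and chosen with earlier results of these data known. Their counts beside the background are therefore a description. Of 20 further immediate early genes, all tested, LPS raised 13 and lowered 4 in B6 and raised 14 and lowered 4 in T169A, with medians of 0.70 and 0.96. Scaled by library size alone these were 9 and 5 in each. Of all tested genes, LPS raised 29.6% and lowered 33.5% in B6 and raised 30.3% and lowered 31.5% in T169A. With 5z7, 17 were lower and 0 higher in each genotype, with medians of -1.18 and -1.28, beside 6.79% and 6.53% of all tested genes lower. The lower count in T169A was 15 to 17 with 1 library left out and 16 when scaled by library size alone. In B6 it was 17 in each of these fits. Dusp1, the phosphatase of p38 and JNK, fell most clearly with 5z7, by 4.28 ± 0.20 in B6 (edgeR adjusted p = 8.41e-10), from 825 ± 222.4 CPM (SD, n = 3) with LPS to 42.5 ± 9.80 CPM. Maff, a small MAF factor, fell by 2.62 ± 0.18 in B6 (adjusted p = 6.42e-08), and Zfp36 by 1.94 ± 0.15 (adjusted p = 1.77e-07). Gadd45b, a stress-induced regulator of MAP kinase kinases, was among the 3 genes not called with 5z7, with a rise of 4.49 ± 0.17 with LPS in B6 (adjusted p = 3.73e-13) and -0.12 ± 0.14 with 5z7 (adjusted p = 0.696). Fos, the AP-1 subunit, and Dusp6, the ERK phosphatase, were lower with LPS, by -3.78 ± 0.15 and -3.28 ± 0.16 in B6 (adjusted p = 9.98e-13 and 8.64e-12). With LPS/5z7 Fos was at 8.84 CPM against 257.3 CPM in unstimulated B6 cells, a change of -4.86 ± 0.16.

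**Figure D5:**
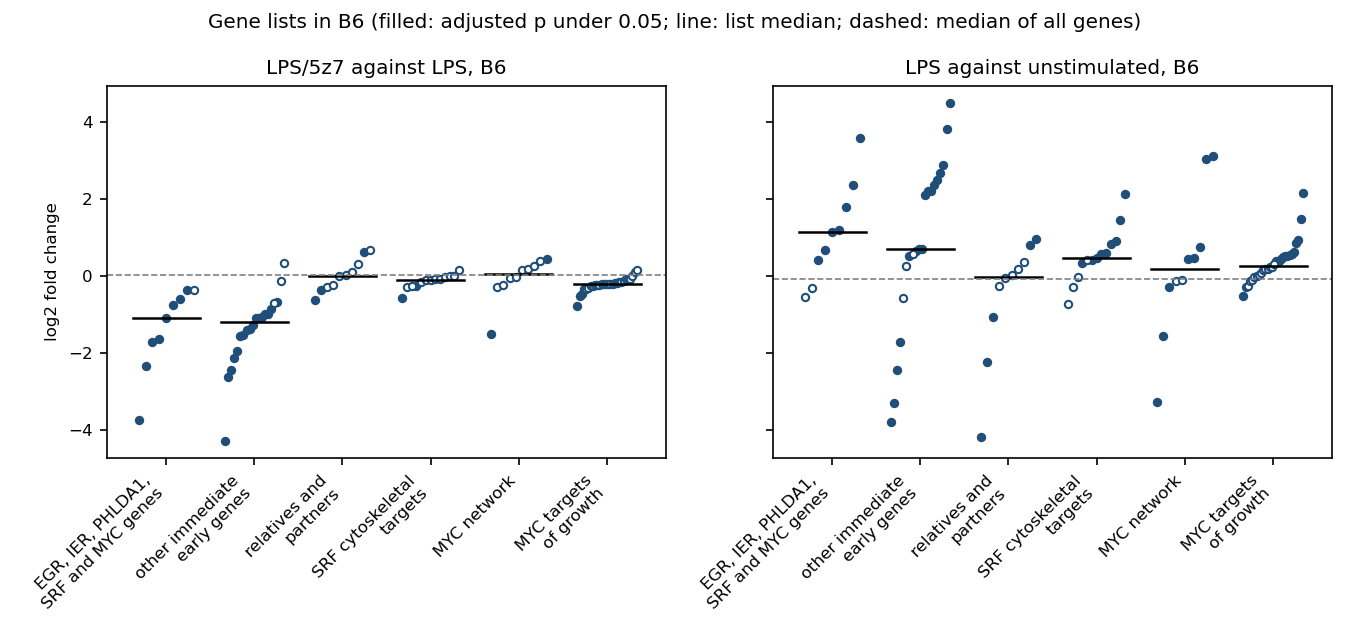
Log2 fold change in B6 of every tested gene of the 9 members and of 5 functional lists, with 5z7 added to LPS (left) and with LPS (right), filled where the edgeR adjusted p is under 0.05; the bar is the list median and the dashed line the median of all tested genes. The members and the further immediate early genes lie mostly below 0 on the left, with medians of -1.10 and -1.18, while the medians of the other 4 lists lie between -0.20 and 0.06.

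Relatives and partners of the same genes were counted next. Of 12 listed, 10 were tested, since Egr4 and Phlda2 had at most 3 counts, and LPS raised 2 and lowered 3 in each genotype (2 and 7 when scaled by library size alone). With 5z7, 1 was higher and 2 lower in each, beside 13.8% and 13% of all tested genes called. Under scaling by library size alone these were 2 and 0 in B6, so that neither gene was called lower, and 1 and 1 in T169A. The lower count was 1 in B6 without library 3, 6 or 8 and 0 in T169A without library 17, and the higher call in T169A was lost without library 15. Nab2, a corepressor of EGR proteins, changed by -0.06 ± 0.15 with LPS (edgeR adjusted p = 0.763) and fell by 0.62 ± 0.16 with 5z7 in B6 (adjusted p = 0.0140). Elk3, a ternary complex factor that binds beside SRF, rose with LPS by 0.82 ± 0.08 (adjusted p = 6.43e-08) and fell with 5z7 by 0.36 ± 0.08 in B6 (adjusted p = 0.00410). Mrtfa, the actin-regulated coactivator of SRF, went the other way, with a fall of 1.16 ± 0.11 with LPS in T169A (adjusted p = 7.75e-08) and a rise of 0.48 ± 0.11 with 5z7 (adjusted p = 0.00798). Ier5l, a paralogue of Ier5, fell with LPS by 4.16 ± 0.39 in B6 (adjusted p = 5.02e-08), from 11.2 to 0.593 CPM.

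Cytoskeletal targets of SRF and its MRTF coactivators had called shares near the background of all tested genes when both directions were counted together. That background was 63.1% and 61.9% with LPS and 13.8% and 13% with 5z7. By direction it was 29.6% up and 33.5% down with LPS in B6, and 30.3% up and 31.5% down in T169A. The called genes of this list were all up with LPS. Of 13 tested, 9 were higher with LPS in B6 and 7 in T169A and 0 lower, with medians of 0.46 and 0.44. With 5z7, 2 were lower in each, with medians of -0.10 and -0.13, and 0 were higher in B6 and 1 in T169A. The lower count was 1 in B6 without library 3, 6, 8 or 9 and in T169A without library 12, 14, 15, 17 or 18, and the 1 higher call was lost whichever library was left out. Tpm4, a tropomyosin gene, rose by 2.14 ± 0.07 with LPS in B6 (edgeR adjusted p = 1.26e-13). Tagln2, an actin-binding protein gene, rose by 1.45 ± 0.09 with LPS in B6 (adjusted p = 3.13e-10). Zyx, the focal adhesion gene zyxin, fell with 5z7 by 0.56 ± 0.11 in B6 (adjusted p = 0.00261). Under scaling by library size alone, LPS raised 2 of these genes and lowered 3 in B6, and raised 2 and lowered 4 in T169A, so the direction of the list depends on the scaling.

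Partners of MYC were also read against the background of 63.1% and 61.9% called with LPS. Of 10 tested genes of the MYC network, LPS raised 5 and lowered 3 in B6 and raised 4 and lowered 3 in T169A (2 and 5, and 3 and 6, when scaled by library size alone). Mxd1, which encodes a repressor that competes with MYC for MAX, rose by 3.05 ± 0.18 in B6 (edgeR adjusted p = 1.01e-10) and had -1.504 ± 0.16 with 5z7 (adjusted p = 8.03e-06). Mnt, a gene of another MAX-binding repressor, fell with LPS by 3.27 ± 0.15 in B6 (adjusted p = 5.68e-12), and Mxd4 fell by 1.55 ± 0.09 (adjusted p = 8.52e-11). Max itself changed by -0.03 ± 0.09 with 5z7 in B6 (adjusted p = 0.90). Of 28 growth genes that MYC is known to activate, LPS raised 13 and lowered 2 in B6 and raised 15 and lowered 2 in T169A, with medians of 0.28 and 0.38, and 3 and 6 were lower with 5z7. Of all tested genes, 6.79% in B6 and 6.53% in T169A were lower with 5z7. The count of 6 in T169A was 1 without library 14 or 17, 2 without 12 and 3 without 18. The 2 genes lower with LPS became 1 without library 4 or 8 in B6 and without 13 in T169A. Under scaling by library size alone LPS raised 3 and lowered 14 in B6, and raised 4 and lowered 11 in T169A. Odc1, the gene of ornithine decarboxylase in polyamine synthesis, rose by 2.15 ± 0.09 with LPS in B6 (adjusted p = 3.03e-12) and fell with 5z7 by 0.76 ± 0.09 (adjusted p = 1.82e-05). With LPS/5z7 it remained above unstimulated by 1.39 ± 0.09 (adjusted p = 8.81e-10), at a condition in which Myc RNA was 4.70-fold lower. MYC protein was not measured, and a link between the levels of Odc1 and Myc was not tested.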

How the data were processed

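Total RNA from 18 macrophage libraries was measured with a TruSeq directional kit, per the labels' protocols. The deposited table holds unnormalized read counts for every gene. The submitters' processing notes name GRCm39, featureCounts, STAR and Trim Galore. Tool versions, the strand setting and the treatment of multi-mapping reads are not given in the sources used here, so overlapping and near-identical genes are uncertain. Symbols and exon lengths came from GENCODE M21 (GRCm38), which matched 91.4% of IDs holding 99.8% of counts. Columns name a group and a running number, and were tied to groups only. All columns were used.

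Counts were tested with edgeR 4.0.16 in R 4.3.3: filterByExpr by group, TMM, 6 group means over 18 libraries, robust quasi-likelihood F-tests, Benjamini-Hochberg over 13068 genes with calls at an adjusted p under 0.05. SEs were obtained from the fold change and its F statistic, and 95% intervals are approximate. The 12 contrasts were read as 6 treatment, 3 genotype and 3 difference-of-effect comparisons. The steps were tested on simulated counts. Depth was 14.6 to 30.4 M counts per library, so that 3 counts correspond to between 0.0986 and 0.205 CPM.

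Some marker genes and lists are not reported here. The members and lists were chosen with earlier results of these data known. Every member is named; of each list, the 3 called genes with the smallest p and the 2 most abundant not called may be named, and the 3 genes most correlated with each member. Alternatives were DESeq2 1.42.0, DESeq2 size factors, library size alone, all genes unfiltered, at least 1 CPM in 3 libraries, the compared groups alone, a fit without each single library, and consecutive numbers taken as a replicate block. The LPS libraries split by depth and the library total as a covariate were added after seeing the data. Figures used Python 3.11.15 and matplotlib 3.10.9.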

Additional observations from a re-analysis of the deposited data

How the results depend on the processing

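Under scaling by library size alone, the members called lower with LPS numbered 2 in B6 and 2 in T169A, and those higher with LPS/5z7 against unstimulated cells numbered 0 in both. Under it Srf with LPS was -0.18 in B6 and -0.13 in T169A, and with LPS/5z7 against unstimulated cells the values were -0.10 (Ier5), -0.25 (Ier2), -0.40 (Ier3) and -0.37 (Srf) in B6 and -0.013 (Ier5), -0.39 (Phlda1), -0.36 (Egr3) and -0.37 (Srf) in T169A. Members lower with LPS in B6 numbered 1 with the filter of 1 CPM, with the compared groups alone and with the deep LPS libraries, and 0 to 1 with a library left out. The B6 count higher with LPS/5z7 against unstimulated cells was 1 with the compared groups alone and 1 to 2 with a library left out, the T169A count 2 to 4. Members lower with 5z7 in B6 numbered 5 with the deep LPS libraries and 5 to 8 with a library left out. With the library total as a covariate 1 member, Ier3, was higher in T169A under LPS/5z7. Ier3 with LPS/5z7 against unstimulated B6 cells was -0.0022 without a filter and -0.19 to 0.17 with a library left out. Leaving out a library also turned Srf in the same comparison (-0.050 to 0.11 in B6, -0.047 to 0.18 in T169A), and Phlda1 (-0.13 to 0.43) and Egr3 (-0.053 to 0.17) in T169A, none of them called. Myc with LPS in T169A ran from -0.24 to 0.19 with a library left out and was 0.21 with the shallow LPS libraries. The cause of these changes was not tested.

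The columns carry no replicate letter. With sets of consecutive numbers as a replicate block, which is estimable only for treatment comparisons and differences of effects, members lower with LPS in B6 numbered 1 (Myc, adjusted p = 0.0167), and Srf with 5z7 passed in B6 (adjusted p = 0.0466) and T169A (0.0278), as did Egr3 with LPS/5z7 against unstimulated B6 cells (0.0110). Deviations of libraries in the same set correlated at r from -0.07 to 0.74, over 0.1 in 16 of 18 pairs and with a median of 0.36, and those of other sets at a median of -0.22, over 0.1 in 10 of 36 pairs. The sample titles share a letter across the 3 treatments, but no column could be tied to a letter, so whether the numbers follow the letters is not known. Single members were followed under all alternatives in 60 values. These were the treatment comparisons, and genotype comparisons with an unadjusted p under 0.05 or libraries that did not overlap. Differences of effects were left out. Of the refitted values, 798 kept direction and side of the threshold, 59 lost and 27 gained the call, and 24 turned sign.

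The fewest counts in a library were 21 for Phlda1, 64 for Myc, 78 for Egr1 and 91 for Egr3.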
